A study of Mus musculus with 12 samples.

Results

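The mitochondrial genome encodes core subunits of the respiratory chain, and 10 of these genes were followed here in mouse Th2 cells, a class of helper T cell known for its part in allergy. They are 6 subunits of complex I (mt-Nd1, mt-Nd2, mt-Nd3, mt-Nd4, mt-Nd5 and mt-Nd6), cytochrome b of complex III (mt-Cytb) and 3 subunits of complex IV (mt-Co1, mt-Co2 and mt-Co3). They were chosen by symbol, and all 10 were found among the 25700 genes of the RNA table and passed the minimum mean used for testing. That table holds 15 mitochondrially encoded rows, and the other 5 (mt-Nd4l, mt-Atp6, mt-Atp8 and the ribosomal RNAs mt-Rnr1 and mt-Rnr2) are given for comparison. RNA was sequenced in 3 libraries labelled WT (wild type) and 3 labelled cKO (conditional knockout), and open chromatin was read by ATAC-seq, in which a transposase cuts accessible DNA, in 3 and 3 others. The series title names NRF2, the antioxidant transcription factor encoded by Nfe2l2. The labels do not give the deleted gene, the driver of the deletion, the strain, the age or whether replicates came from separate animals, so p-values measure the spread between these libraries.

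Complex I takes electrons from NADH, complex III, which holds cytochrome b, passes electrons on to cytochrome c, and complex IV hands them to oxygen. Each of these complexes also holds subunits encoded in the nucleus and imported into the organelle, so that 2 genomes supply its parts. The mitochondrial genes have no introns and are transcribed as long precursors from each strand, which are cut at the transfer RNAs that lie between most of the genes. All of the members are read from the same strand apart from mt-Nd6, which lies on the other.

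Each RNA library summed to between 6431081 and 7372007 normalized counts, a count per gene scaled by the submitters, and the raw depth is unknown. Nfe2l2 stood at 169.9, 155.3 and 147.4 normalized counts in WT and at 452.8, 326.4 and 391.5 under the cKO label, without overlap and higher, not lower, under that label. Single exons were not read apart, so these values do not check a deletion. The Y-linked genes Ddx3y and Eif2s3y were listed at 0 in all 3 cKO-labelled libraries and at 116.8 to 140.5 in WT, so a difference in the sex of the mice and the genotype cannot be told apart. The 12 T cell markers fixed for this work took 0.352% to 0.397% of every total, a sum over markers that differed in direction. Mean normalized counts of Cd3d were 2582 in WT and 1868 under the cKO label, and those of Trbc1 3177 and 2338.5. Those of Cd4 were 1954.5 and 3132. The log2 change was positive for 7 of the 12 and negative for 5, and 0 passed in the limma fit described below. The markers of B cells, of myeloid and dendritic cells, of CD8 T and NK cells and of epithelium and stroma each took at most 0.0105%. In granulocytes and mast cells 1 of 8 markers was listed, and of 6 erythroid markers 1, both lists at 0.000194% or less of any library. In bulk RNA, fewer cells of a type and less RNA per cell cannot be told apart.

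The 10 genes together took 1.85%, 2.60% and 1.54% of the total in WT replicates 1, 2 and 3, and 3.27%, 2.21% and 3.75% in cKO replicates 1, 2 and 3. The group means were 2.00% ± 0.546 and 3.08% ± 0.789 (SD, n = 3 each), a ratio of 1.54. Replicates 1 and 3 of the cKO-labelled group lay above all WT libraries, while cKO replicate 2 lay below WT replicate 2, so the groups overlapped. The largest single transcript of the set, mt-Co1, which encodes the catalytic subunit of complex IV, had the highest mean of any gene in the table.

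**Figure D1:**
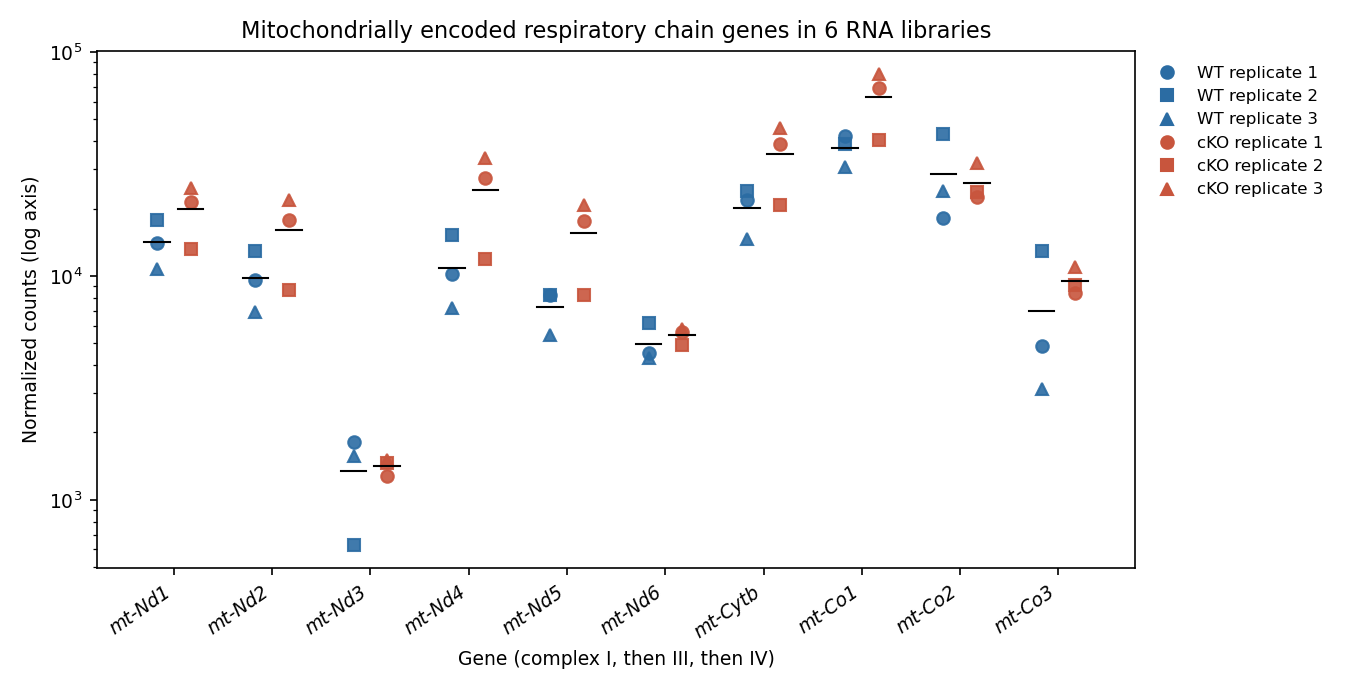
Normalized counts (log axis) of the 10 genes in each RNA library, WT in blue and cKO-labelled in red, with a symbol per replicate and a bar at the group mean. For mt-Nd1, mt-Nd2, mt-Nd4, mt-Nd5, mt-Cytb and mt-Co1 the highest points are cKO replicates 3 and 1, while for mt-Co2 and mt-Co3 the highest point is WT replicate 2.

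In limma, run on values to which 1 was added before log2 and adjusted by Benjamini-Hochberg over 18074 genes, 0 of the 10 members passed an adjusted p of 0.05. Of all genes tested 37 (0.205%) passed, 0.0332% as higher and 0.172% as lower. At an unadjusted p under 0.05 there were 5 members, all higher under the cKO label, against 12.1% of all genes in either direction and 6.05% in that direction. The log2 change was positive for 9 members (for 10 where totals were set equal over the rows not mitochondrially encoded, since mt-Co2 then changed sign), with a median of 0.68 over the 10, against a median of 0.06 and 55.0% positive over all tested genes. Without cKO replicate 2, 4 members passed as higher (mt-Nd4, mt-Nd5, mt-Cytb and mt-Co1), against 0.31% of all genes called higher in that fit. With sample quality weights, which give libraries unequal influence, 6 passed as higher (these 4, mt-Nd1 and mt-Nd2), against 5.22% of all genes. By the adjusted p of the authors' deposited table, mt-Nd5, mt-Cytb and mt-Co1 passed 0.05 as higher, 3 of the 10, where 1.78% of the 9263 genes with an adjusted p did.

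Of the complex I subunits, mt-Nd5, a proton-pumping subunit of the membrane arm (mitochondrial chromosome, 11742 to 13565, mm10 and GRCm38), was at 8216, 8181 and 5460 normalized counts in WT and at 17626, 8263 and 20725 under the cKO label. It was the 1 member whose groups did not overlap, and cKO replicate 2 exceeded WT replicate 1 by a narrow margin; of all tested genes 7.4% were higher without overlap. Its log2 change was 1.01 (SE 0.276, limma adjusted p = 0.148), and 1.42 without cKO replicate 2 (limma adjusted p = 0.0125). In the authors' deposited table its log2 change was 0.95 with an adjusted p of 0.00395.

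The neighbouring gene mt-Nd4, another proton-pumping subunit (10167 to 11544), had the largest log2 change of the members, 1.10 (SE 0.327, limma adjusted p = 0.187). Its values were 10246, 15239 and 7170 in WT and 27297, 11925 and 33609 under the cKO label. The cKO replicates 1 and 3 lay well above all WT libraries and cKO replicate 2 lay within the WT range. Without cKO replicate 2 the log2 change was 1.54 (limma adjusted p = 0.0265), and in the authors' deposited table it was 0.23 with an adjusted p of 0.155. That deposited change was smaller than its SE of 0.403, although the authors' deposited p-value before adjustment was 0.019. The deposited changes may thus be on another scale than those of limma. How they were estimated is not given in the sources used here.

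The first complex I genes on the map, mt-Nd1 (2751 to 3707), which helps form the quinone site, and mt-Nd2 (3914 to 4951), a membrane-arm subunit, also had cKO replicates 3 and 1 highest and WT replicate 3 lowest. The counts of mt-Nd1 were 14065, 17754 and 10794 in WT and 21505, 13198 and 24838 under the cKO label (log2 change 0.46, SE 0.22, limma adjusted p = 0.427). Those of mt-Nd2 were 9641, 12941 and 6876 and then 17854, 8625 and 21765 (log2 change 0.66, SE 0.291, limma adjusted p = 0.393). In both genes, cKO replicate 2 stood below WT replicates 1 and 2. The log2 change of mt-Nd1 was 0.28 without WT replicate 3 or without cKO replicate 3 and 0.73 without cKO replicate 2. That of mt-Nd2 was 0.42, 0.39 and 1.05 in the same fits.

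The remaining complex I members, mt-Nd3 and mt-Nd6, had smaller differences. The short gene mt-Nd3 (9459 to 9806) was at 1819, 632 and 1575 in WT and 1274, 1459 and 1506 under the cKO label, with WT replicate 2 lowest and WT replicate 1 highest. Its log2 change of 0.21 (SE 0.304, 95% interval -0.45 to 0.87) became -0.26 without WT replicate 2. The light-strand gene mt-Nd6 (13552 to 14070) was at 4510, 6155 and 4293 and then 5619, 4938 and 5820, and WT replicate 2 exceeded all cKO-labelled libraries. Its log2 change was 0.15 (SE 0.154, 95% interval -0.19 to 0.48, limma adjusted p = 0.745), with 0.31 without WT replicate 2, 0.08 without WT replicate 1, 0.05 without WT replicate 3 and 0.10 without cKO replicate 3. This gene overlaps the end of mt-Nd5 on the opposite strand, and the use of strand in the counting is not given in the sources used here.

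The complex III member mt-Cytb (14145 to 15288) had 21809, 23857 and 14588 normalized counts in WT and 38861, 20692 and 45914 under the cKO label. Its log2 change was 0.76 (SE 0.252, limma adjusted p = 0.24), 1.10 without cKO replicate 2 (limma adjusted p = 0.0294), and 0.63 in the authors' deposited table, with an adjusted p of 0.0354. Again cKO replicates 1 and 3 were above the WT range and cKO replicate 2 inside it.

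The catalytic complex IV gene mt-Co1 (5328 to 6872) was at 42192, 39037 and 30818 in WT and at 68853, 40291 and 79603 under the cKO label. Its log2 change was 0.71 (SE 0.208, limma adjusted p = 0.181), 1.00 without cKO replicate 2 (limma adjusted p = 0.0181), and 0.61 in the authors' deposited table, with an adjusted p of 0.0239. As a percent of the library total, the values of mt-Co1 did not overlap: 0.575%, 0.564% and 0.436% in WT and 0.978%, 0.627% and 1.08% under the cKO label (two-sided exact permutation test, p = 0.1, the smallest that 3 against 3 libraries allow, and 0.333 adjusted over the 10 members). The share of mt-Nd5 was the other that did not overlap, with the same p, against 10.5% of all tested genes higher without overlap in share.

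The other complex IV members were ordered differently. The copper-binding subunit gene mt-Co2 (7013 to 7696) was at 18203, 43083 and 23976 in WT and 22589, 23643 and 31931 under the cKO label. Its log2 change of -0.05 (SE 0.245, 95% interval -0.58 to 0.48) became 0.30 without WT replicate 2. The counts of mt-Co3 (8607 to 9390), a structural core subunit, were 4869, 12933 and 3120 and then 8423, 9092 and 11011. All cKO-labelled values of mt-Co3 were above WT replicates 1 and 3 and below WT replicate 2 (log2 change 0.70, SE 0.362, limma adjusted p = 0.471). The log2 change of mt-Co3 was 1.28 without WT replicate 2 (limma adjusted p = 0.0596) and 0.25 without WT replicate 3. It was 0.04 in the authors' deposited table, whose changes may be on another scale, as stated for mt-Nd4.

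**Figure D2:**
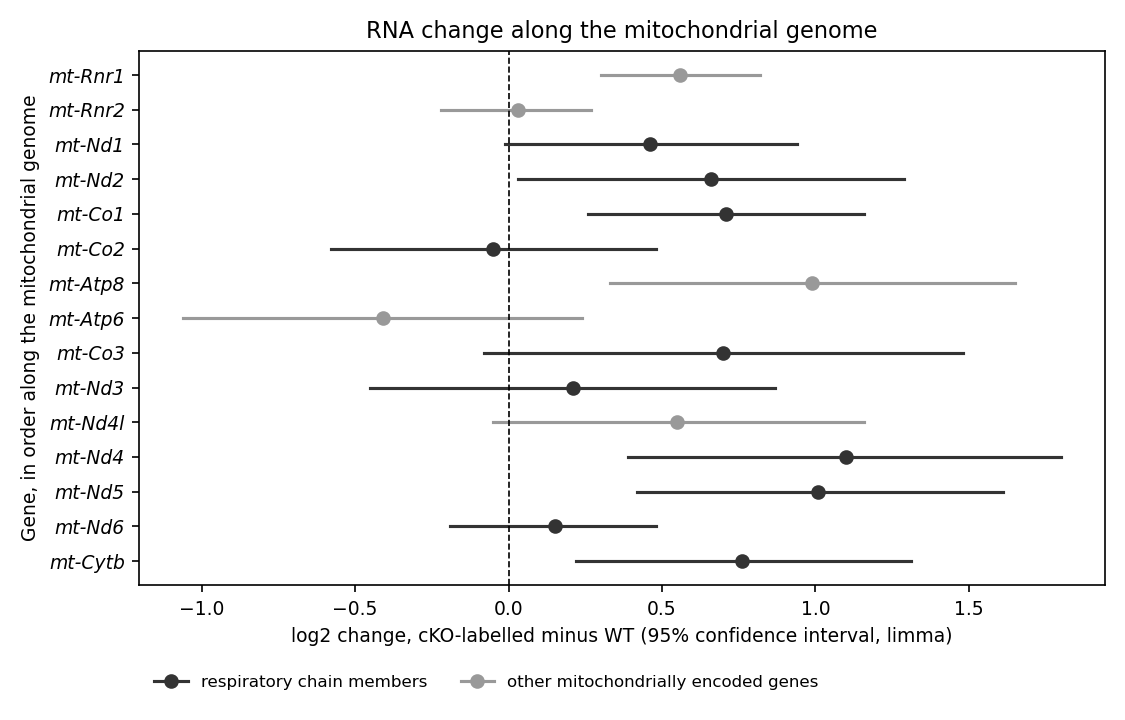
The log2 change (cKO-labelled minus WT, on log2 of normalized count plus 1) of the 15 mitochondrially encoded rows in their order along the genome, with 95% confidence intervals from limma. The members are dark and the other rows grey. Among the members the intervals of mt-Nd2, mt-Nd4, mt-Nd5, mt-Cytb and mt-Co1 lie above 0 before adjustment. Those of mt-Nd1, mt-Nd3, mt-Nd6, mt-Co2 and mt-Co3 span 0.

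Some members shared an order of libraries and others did not. In 6 of them (mt-Nd1, mt-Nd2, mt-Nd4, mt-Nd5, mt-Cytb and mt-Co1) cKO replicate 3 was highest, cKO replicate 1 next and WT replicate 3 lowest. Over the 6 libraries, which include both groups, Pearson's r between the log2 values of these genes was 0.92 to 0.998 in their 15 pairs. This is a description of libraries that share their scaling. The 6 genes were also grouped by their order in these same libraries, so a high r follows in part from that choice. In the other 4 (mt-Nd3, mt-Nd6, mt-Co2 and mt-Co3) the highest library was a WT one, replicate 1 for mt-Nd3 and replicate 2 for the rest.

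The make-up of the summed counts of the 10 genes does not rest on the scaling of a library. Within this sum mt-Nd1 took 10.4%, 9.87% and 9.93% in WT and 9.35%, 9.29% and 8.98% under the cKO label, the only member of the 10 whose groups did not overlap (two-sided exact permutation test, p = 0.1, the smallest possible, adjusted p = 0.4). This measure exists for the members only, so no figure over all genes can be set beside that separation. The part of mt-Nd4 was 7.56%, 8.47% and 6.60% in WT and 11.9%, 8.39% and 12.1% under the cKO label, and that of mt-Co2 13.4%, 24.0% and 22.1% and then 9.83%, 16.6% and 11.5%. Both overlapped between groups (exact permutation p = 0.2 each, adjusted p = 0.4). The largest part was that of mt-Co1 in 5 libraries, at 28.3% to 31.1%, whereas in WT replicate 2 it was 21.7%, below the 24.0% of mt-Co2.

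**Figure D3:**
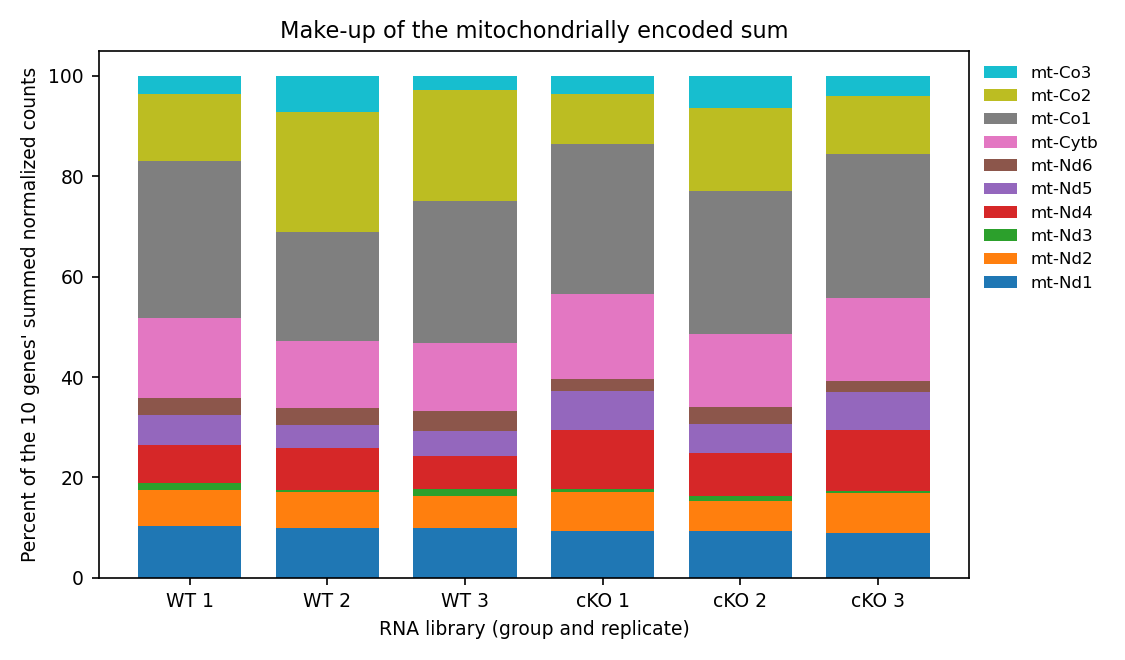
Percent of the summed normalized counts of the 10 genes taken by each gene in each RNA library, as stacked bars that add up to the whole. The mt-Co2 part is widest in WT replicates 2 and 3, and the mt-Nd4 part in cKO replicates 1 and 3.

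Levels were compared between genes as normalized counts per kb of gene length, without the counts assigned to the nuclear copies given below. In WT these ran from 3856 ± 1802 for mt-Nd3 and 3994 ± 867 for mt-Nd5 to 24174 ± 3801 for mt-Co1 and 41550 ± 19038 for mt-Co2 (SD, n = 3). The order by mean, which is one of assigned counts only, differed between the groups. In WT it was mt-Co2, mt-Co1, mt-Cytb, mt-Nd1, mt-Nd6, mt-Nd2, mt-Co3, mt-Nd4, mt-Nd5 and mt-Nd3, and under the cKO label it was mt-Co1, mt-Co2, mt-Cytb, mt-Nd1, mt-Nd4, mt-Nd2, mt-Co3, mt-Nd6, mt-Nd5 and mt-Nd3. The level per kb of mt-Nd4 was 7899 ± 2955 in WT and 17618 ± 8093 under the cKO label. It lay above mt-Nd2 in the 3 cKO-labelled libraries, narrowly in replicate 2 (8654 against 8309), and below it in the 3 WT ones. How many of all pairs of members part in this way was not counted. The steps from mt-Co1 to mt-Cytb, from mt-Cytb to mt-Nd1 and from mt-Nd1 to mt-Nd4 held in 6 of 6 libraries. Other neighbours were not separated in every library: mt-Co2 was above mt-Co1 in 3 of 6, mt-Nd2 above mt-Co3 in 4, mt-Co3 above mt-Nd6 in 3, mt-Nd6 above mt-Nd5 in 5 and mt-Nd5 above mt-Nd3 in 4.

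A copy of part of the mitochondrial genome lies in nuclear DNA on chromosome 1, and reads of the copy and of the organelle can be confused. RefSeq (GRCm38.p6) places Gm10925, which it lists with mt-Atp6 as a synonym, at chromosome 1, 24613971 to 24614651, and Gm10222 at 24612404 to 24612700. Together they span 2248 bp, against 2247 bp from the start of mt-Atp6 to the end of mt-Nd4l, and mt-Co3 and mt-Nd3 lie inside that stretch, so the values of mt-Co3 and mt-Nd3 are uncertain. For the other members the limits of the copy were not analysed here. Mouse annotation counts Gm28661, Gm28437, Gm28438, Gm28439 and Gm29216 among such copies as well, and the gene table used here gives no place for these.

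Counts assigned to the copies were large and uneven. Gm28661 was at 15379, 1707 and 10374 in WT and 18689, 9780 and 13739 under the cKO label, lowest in WT replicate 2. That library was the highest for mt-Co3, and also for mt-Co2, mt-Nd6 and mt-Atp6. Gm28438 was listed at 0 in WT replicate 1 and at 2804 in WT replicate 2, and Gm28439 at 3720 and at 0 in the same libraries. Gm29216 was at 14.6, 3871 and 1814 in WT and 30.2, 197 and 15.5 under the cKO label (log2 change -3.36, limma adjusted p = 0.407). Gm28437 was at 9709, 7397 and 10457 and then 14824, 6393 and 14951 (log2 change 0.31, limma adjusted p = 0.69). Gm10925 was at 7274, 12878 and 12054 and then 22393, 14558 and 26145 (log2 change 0.97, limma adjusted p = 0.106), while mt-Atp6 was at 13801, 18212 and 6316 and then 9783, 6614 and 10408 (log2 change -0.41, limma adjusted p = 0.623). Added together, mt-Atp6 and Gm10925 gave 21075, 31090 and 18370 in WT and 32176, 21172 and 36553 under the cKO label, with cKO replicates 3 and 1 highest and WT replicate 3 lowest, as for mt-Nd1. Gm10222 was at 152, 270 and 265 in WT and 1470, 307 and 1935 under the cKO label, without overlap (log2 change 2.10, limma adjusted p = 0.114). The sum of mt-Nd4l and Gm10222 did not overlap either, at 755, 787 and 530 and then 2171, 816 and 2667. Both placed copies passed in the authors' deposited table, Gm10925 with an adjusted p of 0.00395 and Gm10222 with 0.0271. The 7 copies took 0.485% ± 0.062 of the total in WT and 0.723% ± 0.161 under the cKO label. With them added, the share of the 10 genes was 2.34%, 3.02% and 2.08% in WT and 4.105%, 2.75% and 4.55% under the cKO label, with the same overlap.

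Of the mitochondrially encoded rows that are no respiratory chain members of this set, the ribosomal RNAs parted from each other. The small-subunit RNA mt-Rnr1 was at 7393, 7849 and 8268 in WT and 11601, 10655 and 12379 under the cKO label, without overlap and with cKO replicate 2 also above WT (log2 change 0.56, SE 0.119, limma adjusted p = 0.0809). It passed in the authors' deposited table (log2 change 0.49, adjusted p = 0.00568). The large-subunit RNA mt-Rnr2 had a log2 change of 0.03 (SE 0.113, 95% interval -0.22 to 0.27), and the ratio of mt-Rnr1 to mt-Rnr2 was 0.319, 0.326 and 0.302 in WT and 0.488, 0.413 and 0.468 under the cKO label. The ATP synthase gene mt-Atp8 had a log2 change of 0.99 (limma adjusted p = 0.197) and the complex I gene mt-Nd4l of 0.55 (limma adjusted p = 0.458), both with overlapping groups. In the authors' deposited table mt-Atp8 passed as well (log2 change 0.88, adjusted p = 0.0121).

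Nuclear-encoded subunits of the same chain and of ATP synthase went the other way in sign. Of 78 tested, 72 had negative log2 changes and the median was -0.42, against 55.0% positive and a median of 0.06 over all tested genes. The summed share of ribosomal protein genes was lower on average as well, at 9.60% under the cKO label against 11.8% in WT, with overlap. Of the 78, 1 was called lower (0.172% of all genes were) and 0 higher in limma. The one called was the complex I subunit Ndufa2, at 1231, 1667 and 1676 in WT and 687, 781 and 622 under the cKO label (log2 change -1.12, SE 0.177, limma adjusted p = 0.0421). By complex, 34 of 36 nuclear complex I subunits were negative (median -0.39), 3 of 4 of complex II (-0.11), which has no mitochondrially encoded subunit, 7 of 9 of complex III (-0.46), 12 of 12 of complex IV (-0.51) and 16 of 17 of ATP synthase (-0.39). The call of Ndufa2 was lost when replicate 2 or 3 of WT, or replicate 1 or 3 of cKO, was left out, and also under quantile normalization and without the variance trend. Called lower were 7 of the 78 without WT replicate 1, where 0.349% of all genes were, 8 without cKO replicate 2 (0.52% of all genes) and 40 with sample quality weights (4.65% of all genes), and none was called higher in any of these fits. The lowest adjusted p after that of Ndufa2 were those of the ATP synthase subunit Atp5e (log2 change -1.02) and the complex I subunit Ndufa5 (-1.13), both at a limma adjusted p of 0.065. In complex IV the lowest was that of Cox6b1 (log2 change -0.96, limma adjusted p = 0.0681) and in complex III that of Uqcrh (-0.67, limma adjusted p = 0.101).

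The ratio of the summed members to the summed nuclear subunits was 1.303, 1.600 and 0.983 in WT and 2.81, 1.66 and 3.32 under the cKO label, with means of 1.296 ± 0.309 and 2.60 ± 0.850. The groups did not overlap, although cKO replicate 2 lay just above WT replicate 2. Within complexes the same ratio was 1.86, 2.08 and 1.26 and then 4.59, 2.28 and 5.32 for complex I, 2.12, 2.07 and 1.25 and then 4.54, 2.39 and 5.05 for complex III, and 3.44, 4.20 and 2.77 and then 7.003, 4.56 and 8.41 for complex IV. None of the 3 overlapped between groups. Of single tested genes, 7.4% were higher without overlap in normalized counts and 10.5% in share, and no such figure was taken for ratios of sums. The summed shares of assembly factors and of mitochondrial RNA processing genes were lower without overlap, as was that of the nuclear subunits. For assembly factors the lowest WT value was 0.179% and the highest under the cKO label 0.177%. For RNA processing these were 0.142% and 0.14%, so both margins were narrow. The share of all genes that were lower without overlap is not given here, so these separations have no figure to be set against. Those of complex II, of replication and transcription, of translation factors and of biogenesis regulators overlapped. Ratios between genes were taken on summed counts without division by length and serve only to compare libraries.

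**Figure D4:**
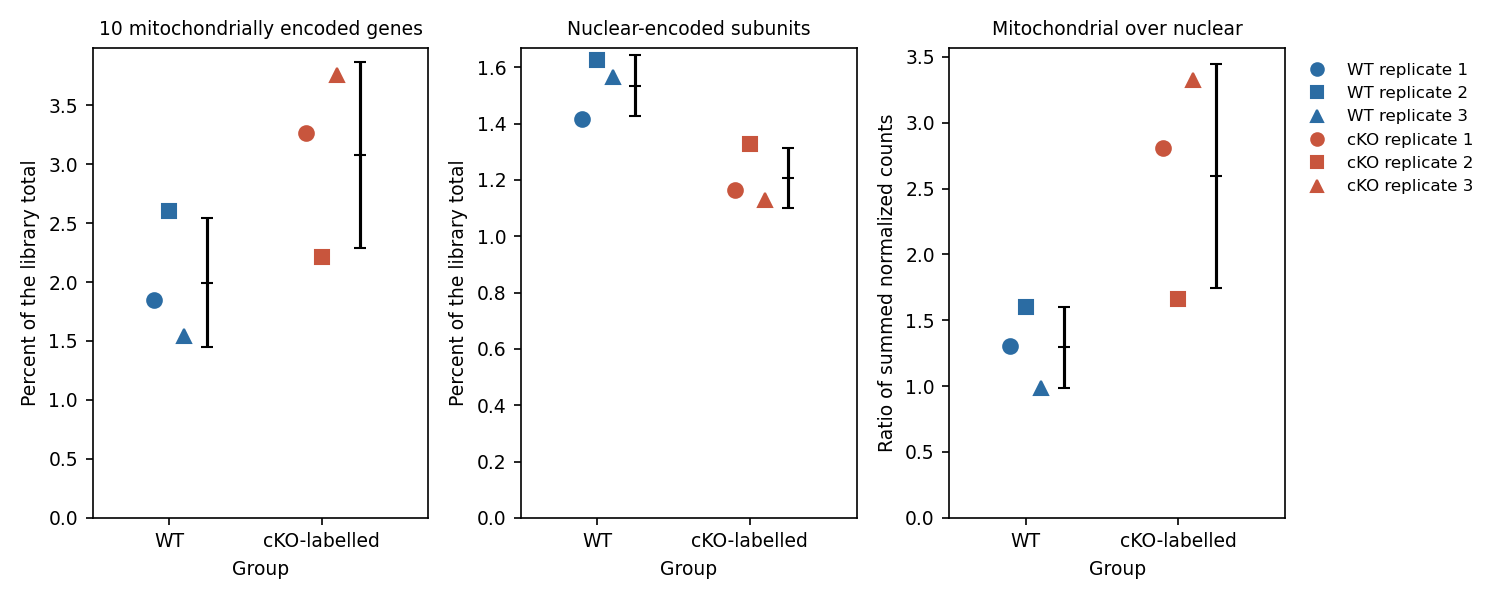
Percent of each RNA library's total taken by the 10 genes (left) and by 78 nuclear-encoded subunits (middle), and the ratio of the former to the latter (right), with a point per library and the mean and SD beside each group. The share of the 10 genes overlaps between groups, while the nuclear share and the ratio do not.

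The genes that copy, transcribe and process mitochondrial DNA and RNA held no called member in limma. Of 20 genes of replication and transcription 11 had negative log2 changes (median -0.16), with Polrmt, the mitochondrial RNA polymerase, at 511, 381 and 481 in WT and 234, 364 and 268 under the cKO label (log2 change -0.68, limma adjusted p = 0.24). Of 22 genes of RNA processing and stability 14 were negative (median -0.08). Fastkd2, which acts in mitochondrial RNA and ribosome maturation, came nearest to passing, at 558, 491 and 416 and then 216, 176 and 262 (log2 change -1.17, SE 0.222, limma adjusted p = 0.0597). Translation factors were split, with 5 of 10 negative (median 0.00). Assembly factors of the chain were negative for 33 of 44 (median -0.15), led by Cox17, a copper chaperone of complex IV (-0.95, limma adjusted p = 0.0834). Biogenesis regulators were positive for 6 of 8 (median 0.16), led by the coactivator Ppargc1a (0.63, limma adjusted p = 0.503).

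Some measures over other genes set cKO replicates 1 and 3 apart as 6 of the members did, but placed WT replicate 2 differently. Spearman's rho between a gene's deviation from its mean over the 6 libraries and its genomic span, over 15783 genes, which are not independent, was -0.032, -0.113 and -0.096 in WT and 0.100, -0.006 and 0.107 under the cKO label. Genes of ribosomal proteins stood at 10.46%, 12.9% and 11.9% of the total for WT and at 9.12%, 10.8% and 8.90% under the cKO label. In both measures cKO replicates 1 and 3 stood together and cKO replicate 2 lay nearer to WT. WT replicate 2, with the third highest share of the members, lay at the end farthest from cKO replicates 1 and 3 in both measures. Of the 23 early response and heat shock genes, which can mark handling or stress, 3 rose in limma (Hspa1a, Hspa1b and Jun), where 0.0332% of all genes did. Positive changes were found in 18 of the 23, against 55.0% of all tested genes. The summed share of the 23 was 1.18%, 1.06% and 1.10% in WT and 1.22%, 1.09% and 1.21% under the cKO label. Hspa1a was at 507, 364 and 180 and then 1322, 1079 and 1138, high also in cKO replicate 2, and these 3 calls were lost on leaving out replicate 2 or 3 of WT or replicate 1 or 3 of cKO, and without the variance trend. Hspa1b was also lost without cKO replicate 2 and with 0.5 added in place of 1. The nuclear-retained RNAs had a median log2 change of 0.15 over 6 genes, with 0 called. The part of these measures in the level of the mitochondrial genes was not tested.

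A likeness was computed for 10609 genes whose mean reached 50, outside the mitochondrial rows and predicted genes. Over the 6 libraries, the pattern most like the mean centred log2 level of the 10 members was that of Vps33b (Pearson's r = 0.996), followed by Snapc3 (0.993), Slc25a17 (0.992), Helz (0.991) and Sh2b3 (0.989). Vps33b was at 176, 189 and 148 in WT and 226, 181 and 251 under the cKO label. The lowest values were those of Nt5c (-0.993), AI463229 (-0.991) and Ttc39c (-0.984). These are ranks among many genes over few libraries and carry no test.

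The ATAC peak lists hold the mitochondrial chromosome as the 2 tallest peaks in all 6 libraries. Mitochondrial DNA carries no nucleosomes and is open to the transposase. Together these peaks took 7.01%, 4.98% and 6.84% of the tags in WT and 7.54%, 6.71% and 7.78% under the cKO label. The means were 6.28% ± 1.13 and 7.35% ± 0.562 (SD, n = 3 each), and the groups overlapped (two-sided exact permutation test, p = 0.3). The difference of 1.07 percentage points was 0.422 without WT replicate 2. In WT replicate 2 all peaks of the list together held 25.22% of the tags, against 34.87% to 38.28% in the other libraries. Its total of 18327127 tags was the highest. The 95% Wilson interval of a single library reached at most 0.014 percentage points to either side, for counting error only and with duplicated molecules not told apart. ATAC and RNA libraries were not matched by the labels.

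In WT replicate 1 the peaks ran from 117 to 7175 and from 9315 to 16299 of the mitochondrial chromosome (mm10), and the list of each library held no other peak on that chromosome. The second peak started earlier in WT replicate 3 (9147) and in cKO replicate 2 (8969). In every library mt-Nd1, mt-Nd2, mt-Nd3, mt-Nd4, mt-Nd5, mt-Nd6, mt-Cytb and mt-Co1 lay wholly under peaks, whereas 22.8% to 24.1% of mt-Co2 and 9.06% to 53.8% of mt-Co3 did, and mt-Atp6 and mt-Atp8 lay outside. A peak in the chromosome 1 copy was found in every library, at 24612483 to 24613114 in WT replicate 1, which, with the copy read in reverse, since Gm10925 and Gm10222 lie in the opposite order to mt-Atp6 and mt-Nd4l, corresponds to 9464 to 10095 of the mitochondrial chromosome, over most of mt-Nd3 and part of mt-Nd4l. Its height was 66.1, 45.6 and 62.7 tags per 10000000 in WT and 58.6, 66.8 and 68.4 under the cKO label (exact permutation p = 0.5), and the difference between means of 6.47 was 0.2 without WT replicate 2.

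**Figure D5:**
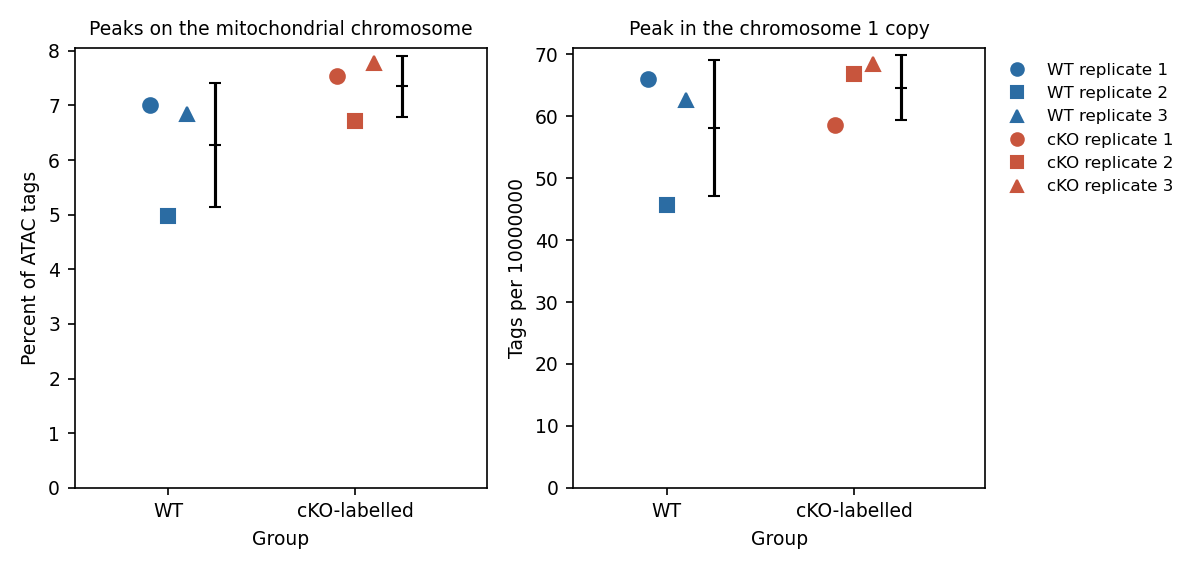
ATAC signal of each library in the peaks on the mitochondrial chromosome, as a percent of all tags (left), and in the peak of the chromosome 1 copy, as tags per 10000000 (right), with the mean and SD beside each group. WT replicate 2 is the lowest point in both panels, at 4.98% and 45.6, and the groups overlap in both.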

How the data were processed

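RNA values are the signal that the authors deposited as normalized counts per gene. Only 0.18% of the nonzero entries came within 0.001 of an integer, so reads were not recovered and no count test was run. The submitters' processing notes name mm10 and the tools HOMER 4.11, Bowtie2 2.3.5.1, DESeq2, edgeR, RSEM 1.3.3 and STAR, without roles or settings. The authors also deposited a log2 fold change per gene, with its p-value before and after adjustment. Per the file headers, ATAC peak tag counts are a signal scaled to 10000000 tags, peaks used a Poisson threshold of 0.001, the clonal fold is a ratio, and the peak score, a score of the authors' caller, was not used.

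Genes with a mean of at least 10 were fitted with limma 3.58.1 (R 4.3.3, eBayes, trended variance) after adding 1 and taking log2, adjusted by Benjamini-Hochberg over all genes at 0.05. Shares and peaks were compared with exact permutation tests over 20 arrangements (scipy 1.17.1, Python 3.11.15). Gene positions came from RefSeq GRCm38.p6; 87.3% of tested genes had a span there. Named were all members, the other mitochondrial rows, the nuclear copies, up to 3 genes per list with the smallest p, and the 5 most and 3 least alike genes. Of the lists' genes only a part is printed. The members and lists were chosen with earlier results of these data known. Mitochondrial DNA and protein sequences were not used here. The fit was tested on simulated data.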

Additional observations from a re-analysis of the deposited data

How the results depend on the processing

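The count of 37 changed genes became 6 without the variance trend, 1783 with sample quality weights (7.43 for cKO replicate 1, 0.437 to 1.12 for the others), 526 by the authors' deposited adjusted p, and 1 (without WT replicate 2) to 150 (without cKO replicate 2) when 1 library was left out. Of the 10 members 0 passed in limma, and 6 with the quality weights, 3 by the authors' deposited adjusted p, and 0 to 4 with 1 library left out, the 4 without cKO replicate 2. With the replicate block (the number in the title as a factor) 122 genes and 0 members passed; same-number correlations around the group means were 0.116, 0.206 and -0.055, so the numbers were not taken to pair libraries. With 1 library left out, the log2 change ran from -0.26 to 0.50 for mt-Nd3 and from -0.32 to 0.30 for mt-Co2. The change of sign came without WT replicate 2 in both (-0.26 and 0.30), and mt-Co2 was also at 0.05 without cKO replicate 1, at 0.01 without cKO replicate 2 and at 0.0046 with totals over rows not mitochondrially encoded. The difference in share of the total ran from -0.00313 to 0.00469 percentage points for mt-Nd3 and from -0.107 to 0.0802 for mt-Co2, with the change of sign without WT replicate 2. The difference in share within the members' sum ran from -0.72 (without WT replicate 2) to 3.99 for mt-Co1 and from -0.73 (without cKO replicate 2) to 1.45 for mt-Co3, which was also negative without WT replicate 1 (-0.352) and WT replicate 3 (-0.712). The cause of these changes was not tested. The differences in summed share, in the ratio to nuclear subunits and in ATAC signal kept their sign in all alternatives run.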
